A study of Homo sapiens with 4 samples.

Results

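Interferon-stimulated genes and the sensors of foreign RNA that switch them on were followed through a knockdown of the deubiquitinase gene USP47 in HGC-27 cells, an established gastric carcinoma line. The members are 53 genes of the 63568 gene identifiers that were counted, chosen as a named list of interferon receptors, signal transducers, RNA sensors and interferon-stimulated genes and matched by symbol. The list holds 54 symbols, of which DDX58 and RIGI are the same gene. All cells had been infected with lentivirus, either with a scrambled shRNA (control shRNA, 2 libraries) or with an shRNA against USP47 (USP47 shRNA, 2 libraries), and the study's methods describe stable cells selected with puromycin. The sources used here do not say whether both knockdown libraries carry the same USP47 shRNA. No uninfected sample is among the 4 libraries, so a response that both constructs share cannot be seen here, and each comparison below asks only whether the level of a gene differs between the constructs. The series calls its samples biological duplicates without saying that they came from separate cultures, so p-values measure the spread between these libraries, which may be technical.

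Type I interferons act through a receptor of 2 chains, IFNAR1 and IFNAR2, whose kinases phosphorylate STAT2. Together with IRF9 it acts in a complex that binds the interferon-stimulated response element (ISRE) in promoters, while the gamma-activated site (GAS) is the element known for the response to interferon gamma. Viral or other double-stranded RNA is detected in the cytosol by RIG-I and MDA5, which signal through MAVS, and in endosomes by TLR3, and both routes lead through IRF3 and IRF7 to interferon production. Short hairpin RNAs pass through double-stranded forms, so interferon-stimulated genes are a customary check on shRNA experiments.

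Total counts on genes ran from 15649899 to 20140273 per library, and a count of 3, the limit that a count of 0 allows, came to between 0.144 and 0.209 CPM (the count of a gene relative to the size of its library after TMM scaling, as in all CPM here), for counting error only. USP47 itself was at 80.0 and 66.1 CPM in the control libraries and at 36.0 and 21.5 CPM in the USP47 shRNA libraries, which is 49.3% and 29.5% of the control mean, so the knockdown was unequal between the libraries. By the quasi-likelihood test of edgeR, which gave all p-values below, adjusted by Benjamini-Hochberg over 21932 genes, USP47 fell by 1.34 on the log2 scale (standard error 0.21, adjusted p = 0.00362). The leukocyte marker PTPRC had from 8 to 12 counts in a library. Of the endothelial markers matched the highest count was 9. Epithelial markers reached at most 28 counts, and among them EPCAM, with 12 and 11 counts in the controls and 3 and 3 with USP47 shRNA, was called lower (log2 fold change -1.84, adjusted p = 0.0416), of which the part in the results below was not tested. Of the 2 mesenchymal markers, VIM, an intermediate filament gene, had 7946 and 9236 counts in the controls and 7336 and 7201 with USP47 shRNA. In CPM, VIM was at 468.5 and 470.8 in the controls and at 352.7 and 501.7 with USP47 shRNA. The knockdown libraries thus lay on either side of the controls, and VIM was not called. CDH2, the other, had 3 and 3 counts in the controls and 10 and 3 with USP47 shRNA, too few to test. By the epithelial markers, the labelled carcinoma line was nearly without the defining epithelial transcripts.

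Of the 53 members, 42 had enough counts to be tested and 11 had not. Of the 42, 10 were called at an adjusted p under 0.05, 6 of them higher and 4 lower with USP47 shRNA. LGALS3BP, HERC6, IFNAR1, SP100, IRF1 and SP110 rose, and IFI27, OAS3, IFNAR2 and IFIT5 fell. The 10 called members are 23.8% of those tested, where 16.1% of all genes tested were called. The 6 that rose are 14.3% beside 6.52% of all genes, and the 4 that fell are 9.52% beside 9.56%. The other 32 had log2 fold changes between -0.49 and 0.63, and a p that misses the threshold does not show that their levels were the same. In bulk RNA, fewer expressing cells and less RNA per cell cannot be told apart.

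**Figure D1:**
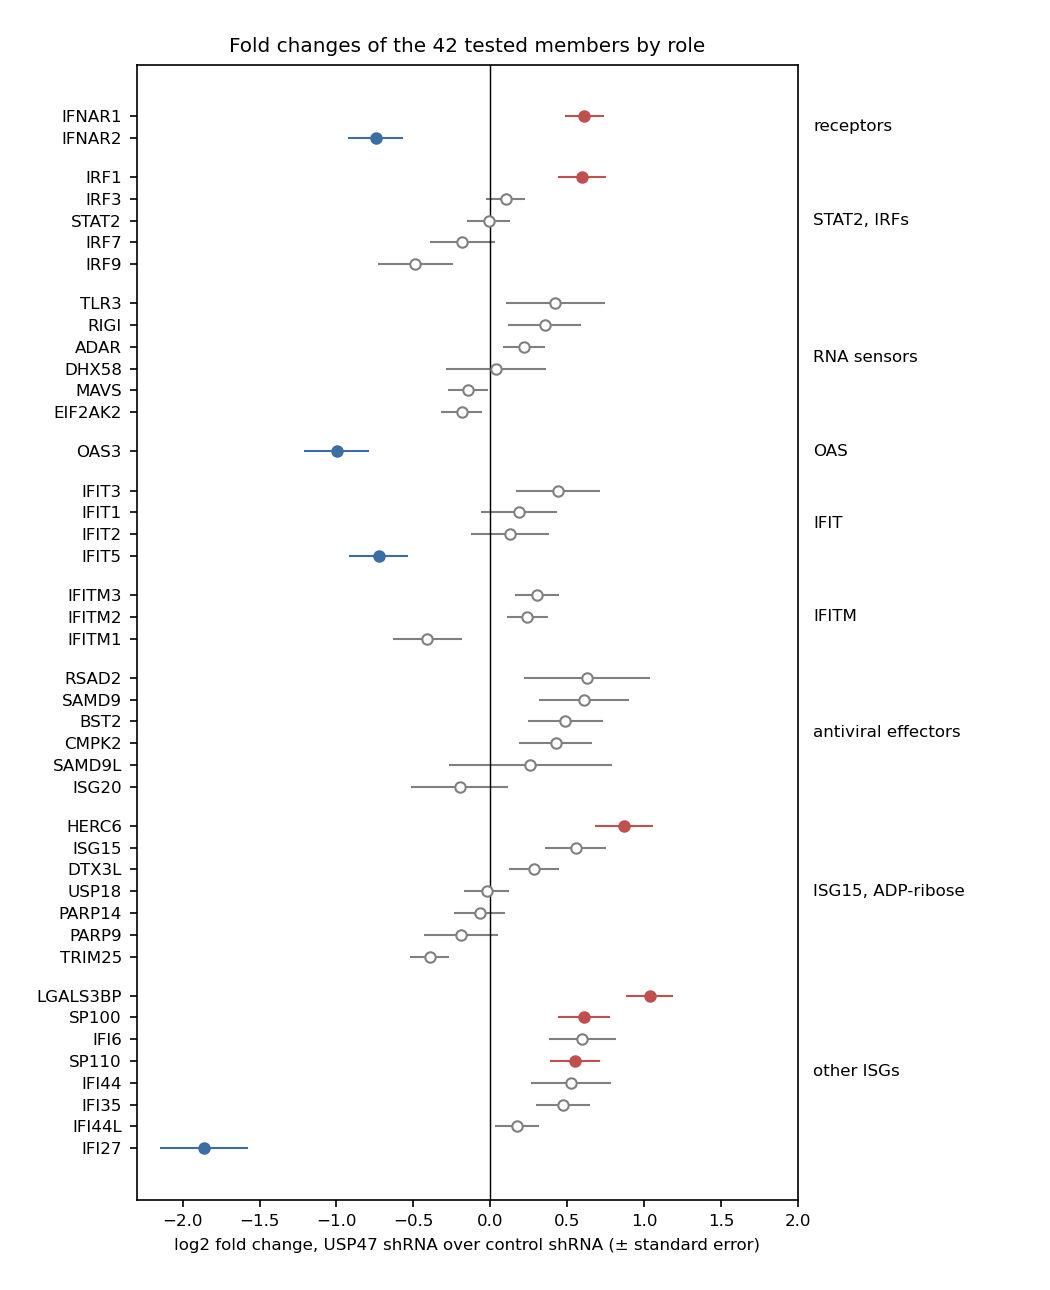
Each point is a tested member, grouped by role, at its log2 fold change of USP47 shRNA over control shRNA (x axis) with its standard error as a bar; filled red points rose, filled blue points fell and open points did not pass the test. The points lie between -1.86 for IFI27 and 1.04 for LGALS3BP, and rises and falls occur side by side among the receptors.

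The fold changes of the members as a whole lay slightly above those of all genes. Their median log2 fold change was 0.23 (quartiles -0.17 and 0.52, 42 members), where the median over all genes tested was -0.01 (quartiles -0.34 and 0.27). Of the members, 11 (26.2%) were above 0.5 and 4 (9.52%) below -0.5, where 11.4% of all genes were above and 17.7% below. Both USP47 shRNA libraries lay above both controls in CPM for 19 members (45.2%, beside 29.3% of all genes) and below both for 9 (21.4%, beside 31.7%), and the groups overlapped for 14. Large changes were few, with 1 member above a log2 fold change of 1 (2.38% beside 2.32% of all genes) and 1 below -1 (2.38% beside 5.48%). Without USP47 shRNA replicate 1 the median of the members was 0.053, and in the other fits that left out a library it was between 0.17 and 0.22. These shares describe the list, which was not tested as a set.

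**Figure D2:**
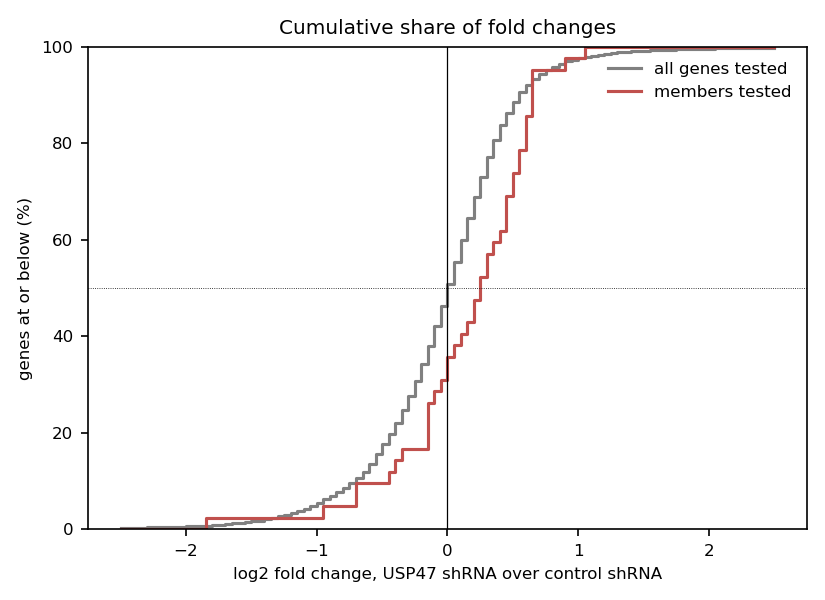
Share of genes (y axis, percent) at or below each log2 fold change of USP47 shRNA over control shRNA (x axis), for the 42 tested members in red and all 21932 genes tested in grey. The red line runs to the right of the grey one between about -1.3 and 0.6, and the medians are 0.23 and -0.01.

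Levels of the members spanned from well expressed to undetected. TPM as deposited, a level corrected for gene length, was in the control libraries highest for IFITM3 at 125.5 ± 3.66 (SD, n = 2), a membrane protein that blocks virus entry. It was followed by ADAR, the RNA-editing enzyme that marks double-stranded RNA as the cell's own, at 60.2 ± 4.23 TPM. IFITM2 was at 39.8 ± 1.68, MAVS at 29.3 ± 1.62 and the ubiquitin ligase gene TRIM25 at 24.8 ± 1.30 TPM (SD, n = 2 each). The values of each of these 5 genes lay above both values of the next, whereas IFITM1 (16.6 ± 3.77 TPM) and STAT2 (14.3 ± 0.05 TPM, SD, n = 2) overlapped. In all, 13 members had a mean of at least 10 TPM in the controls, 30 at least 1 and 23 less than 1.

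The 11 members without a test had at most 7 counts in any library. They are OAS1, OAS2, OASL, IFIH1 (MDA5), MX1, MX2, TRIM22, HERC5, IFI16, XAF1 and EPSTI1, and include genes often read as the response to interferon or double-stranded RNA. MX1, a GTPase that traps viral nucleocapsids, had 2 and 7 counts in the controls and 6 and 5 with USP47 shRNA. IFIH1 had 2 and 0 counts in the controls and 0 and 1 with USP47 shRNA. OAS2 had 0 counts in both controls and 2 and 1 with USP47 shRNA, and EPSTI1 0 in both controls and 1 and 0. None of the 11 showed in either group a level that this depth can tell from a few counts, and 6 of them had 3 counts or fewer in every library. Summed over all 53 members, levels were 1310 and 1348 CPM in the controls and 1413 and 1484 CPM with USP47 shRNA, of which ADAR alone gave between 27.6% and 30.1%.

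**Figure D3:**
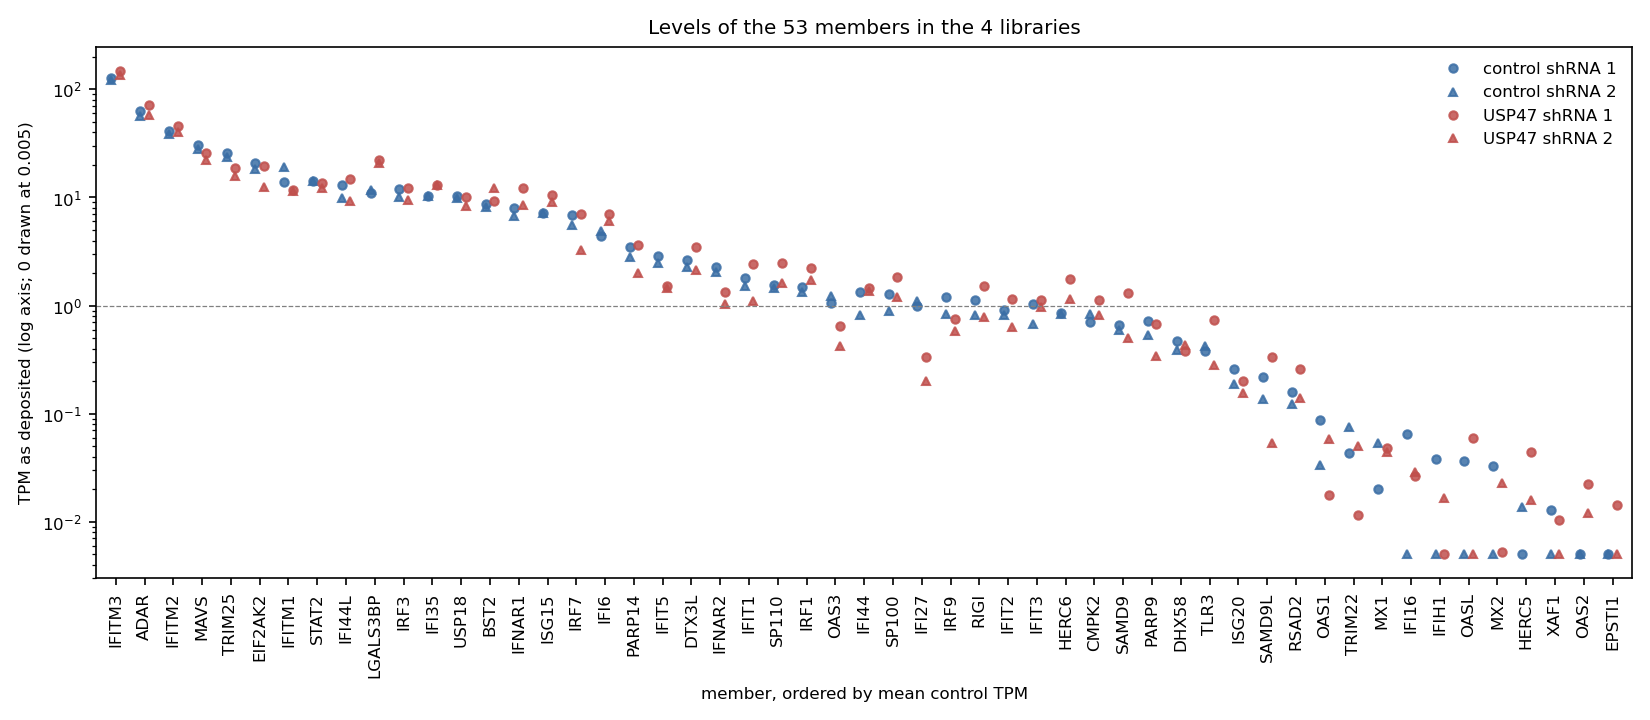
TPM as deposited (y axis, log scale, a value of 0 drawn at 0.005) of each of the 53 members in the 4 libraries, ordered by mean control level; blue marks control shRNA, red USP47 shRNA, circles replicate 1 and triangles replicate 2. IFITM3 leads at 125.5 TPM and the 11 members without a test form the right end, under the dashed line at 1 TPM.

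Promoter sequences were searched for the letters of the elements that interferon signals act on. RefSeq promoters (300 bases, 250 before to 50 after the start, table of GRCh38.p14) were found for 42 members, and 41 of these were placed by exact match in GRCh37, the build of the coordinates given here. The ISRE core GAAANNGAA, searched on both strands, occurred in 24 of the 42 promoters (57.1%) and in 8.29% of all 27305 promoters. The GAS letters TTCNNNGAA, the same on both strands, occurred in 10 of the 42 (23.8%) and in 7.88% of all. Matches may overlap each other, as the ISRE and GAS matches of IFI27 do. The windows below show matches of the called members and, for comparison, of 3 classical interferon-stimulated genes that were not called or not tested. Further matches of IFIT5, IFI27, ISG15, IFIT1 and MX1 are not shown. Each is read on the strand of its gene with 10 bases on either side, the capitals mark the match (TTCNNTTTC where it lies on the other strand), and it begins the stated number of bases before or after the start of transcription.
IFI27, 107 before, chr14:94576965-94576993, plus strand: tgtctgcagtTTCGGTTTCctggaaaatg
IFI27, 95 before, chr14:94576977-94577005, plus strand: cggtttcctgGAAAATGAAacctatctca
OAS3, 143 before, chr12:113376126-113376154, plus strand: agaaagaaacGAAACTGAAagcagggaat
OAS3, 12 before, chr12:113376257-113376285, plus strand: agccgggcggGAAAACGAAaccagaaatc
IFIT5, 44 before, chr10:91174271-91174299, plus strand: tctattaagtTTCGGTTTCtgaagcttac
IFIT5, 18 before, chr10:91174297-91174325, plus strand: tacgtttagtTTCGATTTCttaagtttca
LGALS3BP, 58 before, chr17:76976045-76976073, minus strand: gtggtttctgGAAATCGAAagtagactct
IRF1, GAS, 124 before, chr5:131826571-131826599, minus strand: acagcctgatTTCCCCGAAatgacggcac
ISG15, 107 before, chr1:948760-948788, plus strand: tcgggaaaggGAAACCGAAactgaagcca
IFIT1, 115 before, chr10:91152255-91152283, plus strand: tagctttagtTTCACTTTCccctttcggt
MX1, 12 after, chr21:42792486-42792514, plus strand: gagcagaaatGAAACCGAAactgaattgt

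Members with and without these letters had close medians. The median log2 fold change was 0.29 over the 20 tested members with an ISRE core in the promoter and 0.35 over the 15 without. The called members differed in count, since the 3 that fell and have a promoter in the table (IFI27, OAS3 and IFIT5) all held a core, as did 1 of the 6 that rose (LGALS3BP), 16 of the 26 that were not called and 4 of the 7 not tested. IFI27 and OAS3 held 2 cores each and IFIT5 held 3. A match of letters is a description and not a bound site.

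The receptor chains moved in opposite directions. IFNAR1, the chain that binds interferon with low affinity and recruits TYK2, was at 34.7 and 33.2 CPM in the controls and at 53.6 and 50.2 CPM with USP47 shRNA. IFNAR2, the high-affinity chain that recruits JAK1, was at 7.13 and 7.29 CPM in the controls and at 4.23 and 4.39 CPM with USP47 shRNA. In neither gene did the groups overlap, and replicates lay close together. IFNAR1 rose 1.53-fold (log2 fold change 0.61, standard error 0.13, adjusted p = 0.0112) and IFNAR2 was 1.68-fold lower (log2 fold change -0.74, standard error 0.18, adjusted p = 0.0201). They lie near each other on chromosome 21 of GRCh37, IFNAR2 at 34577587 to 34637980 and IFNAR1 at 34696692 to 34732170, both on the plus strand. Antisense genes overlap exons of both (IL10RB-DT that of IFNAR2), the readthrough gene IFNAR2-IL10RB shares 14% of the 50-base words of IFNAR2, and since the use of strand in the counting is not stated, reads of these genes cannot be told apart.

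Of the 5 members between receptor and promoter, 1 rose (20%, beside 6.52% of all genes tested) and the others did not pass the test. IRF1, a transcription factor induced through its GAS and an activator of many interferon-stimulated genes, was at 7.90 and 8.05 CPM in the controls and at 11.9 and 12.3 CPM with USP47 shRNA, with no overlap. It was 1.51-fold higher (log2 fold change 0.60, standard error 0.15, adjusted p = 0.0279), and the antisense gene IRF1-AS1 overlaps its exons. STAT2 had a log2 fold change of -0.01 (standard error 0.14) and IRF3, the factor activated by RNA sensing, 0.10 (standard error 0.13). IRF9, the DNA-binding partner of STAT2, went from 3.13 and 2.50 CPM to 1.97 and 2.02 CPM (log2 fold change -0.49, adjusted p = 0.197). IRF7, which amplifies interferon production, was at 12.4 and 11.4 CPM in the controls and differed between the knockdown libraries, with 12.8 CPM in replicate 1 and 7.87 CPM in replicate 2.

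Among the RNA sensors and their adaptor none of the 6 tested genes passed the test (0%, beside 16.1% of all genes tested). Of the 6, 0 had an unadjusted p under 0.05. DESeq2's Wald test called 0 of them as well. Leaving out a knockdown library gave calls for 4 of them, ADAR (log2 fold change 0.29) and EIF2AK2 (-0.29) without USP47 shRNA replicate 1, where 32% of all genes were called, and RIGI (0.58) and TLR3 (0.78) without replicate 2, where 27.4% were. RIGI, the sensor of RNA with a free triphosphate end, was at 4.07 and 3.31 CPM in the controls and at 5.48 and 3.76 CPM with USP47 shRNA (log2 fold change 0.35, standard error 0.23, adjusted p = 0.326). A gene without a symbol holds 42.1% of its 50-base words, so its count is uncertain. TLR3 had 1.77 and 2.19 CPM in the controls and 3.41 and 1.74 CPM with USP47 shRNA, so that the groups overlapped. EIF2AK2 (PKR), the kinase that stops translation on binding double-stranded RNA, had 152.3 and 153.3 CPM in the controls and 144.2 and 124.2 CPM with USP47 shRNA (log2 fold change -0.19, standard error 0.13). ADAR had 362.4 and 372.6 CPM and then 410.6 and 446.1 CPM (log2 fold change 0.22, standard error 0.14, adjusted p = 0.288). MAVS was at -0.15 (standard error 0.13) and DHX58 (LGP2), which modulates the other sensors, at 0.04 (standard error 0.33) on the log2 scale.

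The OAS and IFIT families each had 1 member that fell, of 1 and 4 tested, where 9.56% of all genes tested fell. OAS3, which makes the oligoadenylates that activate RNase L, was at 5.96 and 7.90 CPM in the controls and at 3.70 and 3.21 CPM with USP47 shRNA, with no overlap. It was 2.00-fold lower (log2 fold change -0.998, standard error 0.21, adjusted p = 0.0126) and is the only OAS gene with enough counts to test. IFIT5, which binds viral and transfer RNA ends, was at 7.90 and 7.75 CPM and then at 4.18 and 5.37 CPM, 1.66-fold lower (log2 fold change -0.73, standard error 0.19, adjusted p = 0.0282). The other IFIT genes had positive values that did not pass the test, 0.19 for IFIT1, 0.13 for IFIT2 and 0.44 for IFIT3, with standard errors from 0.25 to 0.27. Of these, IFIT1 senses RNA that lacks the cap methylation of the cell's own messages. IFIT1 was at 3.77 and 3.62 CPM in the controls and at 5.10 and 3.14 CPM with USP47 shRNA, so the groups overlapped. OAS3 lies on chromosome 12 at 113375856 to 113414265 and IFIT5 on chromosome 10 at 91174325 to 91181362 (GRCh37, plus strand), and no antisense exon overlaps either.

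None of the 3 IFITM genes and none of the 6 tested antiviral effectors passed the main test of edgeR or DESeq2's Wald test. In the main test, where 16.1% of all genes tested were called, 0 of them had an unadjusted p under 0.05. With the replicate as a block in the fit, 33.8% of all genes were called. Among them were IFITM1 (log2 fold change -0.38), IFITM3 (0.30), BST2 (0.48) and SAMD9 (0.56). Without USP47 shRNA replicate 1, IFITM2 (log2 fold change 0.36), IFITM3 (0.46) and BST2 (0.86) were called, and without replicate 2, IFITM1 (-0.61) and SAMD9 (0.98). IFITM3 had 118.6 and 129.2 CPM in the controls and 137.2 and 169.2 CPM with USP47 shRNA (log2 fold change 0.31, standard error 0.14, adjusted p = 0.168). IFITM2 was at 0.24 and IFITM1 at -0.41 on the log2 scale, and between 15.7% and 29.8% of the 50-base words of these 3 genes occur in other genes, so reads can be split among them. RSAD2 (viperin), which makes a chain-terminating nucleotide, had 9 and 9 counts in the controls and 18 and 9 with USP47 shRNA. BST2 (tetherin), which holds budding virus on the cell, had 6.72 and 7.19 CPM and then 7.21 and 12.6 CPM. CMPK2 (0.43), SAMD9 (0.61), SAMD9L (0.26) and ISG20 (-0.20) complete the group in log2 fold change, with standard errors between 0.24 and 0.53.

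Of 7 tested genes of ISG15 and ADP-ribose conjugation, HERC6 rose (14.3%, beside 6.52% of all genes tested). HERC6, a ubiquitin ligase related to the ISG15 ligase HERC5, was at 3.42 and 3.77 CPM in the controls and at 6.97 and 6.13 CPM with USP47 shRNA, with no overlap. It was 1.82-fold higher (log2 fold change 0.87, standard error 0.19, adjusted p = 0.0144) and lies on chromosome 4 at 89299891 to 89364249 (GRCh37, plus strand). ISG15, the ubiquitin-like modifier, had 3.54 and 3.98 CPM in the controls and 5.15 and 5.99 CPM with USP47 shRNA. The groups did not overlap, but ISG15 fell short of the threshold (log2 fold change 0.56, standard error 0.20, adjusted p = 0.0808). With the replicate as a block, where 33.8% of all genes were called, ISG15 was called higher (log2 fold change 0.57). TRIM25, the ligase that activates RIG-I, was at 117.6 and 124.1 CPM and then at 86.7 and 97.2 CPM (log2 fold change -0.40, standard error 0.13, adjusted p = 0.0613). It was called lower in 5 of 10 alternative fits, among them the fit by library size alone and the fits without either knockdown library. USP18, the protease that removes ISG15 and restrains the receptor, was at -0.02 on the log2 scale (standard error 0.15), and 11.8% of its 50-base words occur in other genes, mostly USP41. PARP14 (-0.07), PARP9 (-0.19) and its partner DTX3L (0.28) did not pass the test.

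The largest rise and the largest fall were both among the remaining interferon-stimulated genes. LGALS3BP, a secreted glycoprotein that binds galectins, was at 27.4 and 32.5 CPM in the controls and at 54.6 and 68.4 CPM with USP47 shRNA. IFI27, a small mitochondrial protein that is among the most inducible interferon targets, was at 2.83 and 3.57 CPM in the controls (48 and 70 counts) and at 0.962 and 0.766 CPM with USP47 shRNA (20 and 11 counts). In both genes the groups were far apart. LGALS3BP rose 2.05-fold (log2 fold change 1.04, standard error 0.15, adjusted p = 0.00273), and IFI27 was 3.64-fold lower (log2 fold change -1.86, standard error 0.29, adjusted p = 0.00322). LGALS3BP lies on chromosome 17 at 76967320 to 76976029 (minus strand) and IFI27 on chromosome 14 at 94571182 to 94583032 (plus strand) of GRCh37, and no antisense exon overlaps either gene.

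SP100 and SP110, components of nuclear bodies, rose less. SP100 was at 11.1 and 8.77 CPM in the controls and at 16.2 and 13.9 CPM with USP47 shRNA (1.53-fold, log2 fold change 0.61, standard error 0.17, adjusted p = 0.0369), and SP110 at 7.31 and 7.85 CPM and then 11.8 and 10.3 CPM (1.46-fold, log2 fold change 0.55, standard error 0.16, adjusted p = 0.0457). Antisense genes overlap exons of both, and for SP110 one of them is SP140. In TPM as deposited, SP100 was the only one of the 10 called members whose groups overlapped, with 1.27 and 0.886 in the controls and 1.85 and 1.19 with USP47 shRNA. IFI6 (0.60), IFI44 (0.53) and IFI35 (0.47) had higher CPM in both USP47 shRNA libraries than in both controls. None of these passed the test (adjusted p = 0.0872, 0.192 and 0.0901). With the replicate as a block, where 33.8% of all genes were called, IFI6 (0.62) and IFI35 (0.47) were called higher. IFI44L, at 92.4 and 79.3 CPM in the controls, was at 105.8 and 87.4 CPM with USP47 shRNA, and the groups overlapped.

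The calls depended on the libraries and the scaling. Their directions could hardly change, since in all 10 called members both knockdown libraries lay on the same side of both controls in CPM. All 10 called members kept their direction in each of 10 alternative fits, but only IFI27 and LGALS3BP also passed the threshold in each, with adjusted p of at most 0.00989 and 0.0177. Scaled by library size alone, 3 members were higher and 5 lower, and DESeq2's Wald test called 2 higher and 2 lower (LGALS3BP, IFNAR1, IFI27 and OAS3). Without control replicate 1, where 5.24% of all genes were called, there remained 3 of the 10 calls (IFI27, LGALS3BP and OAS3, log2 fold change -1.18), and without control replicate 2 (6.22% of all genes called) the remaining 2 were IFI27 and LGALS3BP. Calls lost without a control had adjusted p from 0.0696, for HERC6, to 0.385, for SP100, and in these fits the lone control was assumed to vary as the knockdown libraries do. Without control replicate 2, OAS3 was at -0.78 (adjusted p = 0.14, range over all 10 alternatives 8.18e-06 to 0.14).

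The knockdown libraries differed from each other more than the controls did. Of the 42 tested members, 6 (14.3%) were higher by over 0.5 in log2 CPM (pseudocount 0.5) in USP47 shRNA replicate 1 than in replicate 2, beside 8.21% of all genes tested, and 1 was lower by as much. The 6 are IRF7, TLR3, IFIT1, SAMD9, SAMD9L and PARP9, and the 1 is BST2. SAMD9 was at 3.13 and 3.16 CPM in the controls, and at 6.20 CPM in replicate 1 and 3.14 CPM in replicate 2 of USP47 shRNA, so that it was above the controls in a single library. In the controls 0 members differed by over 0.5 in that direction and 1, IFITM1, in the other. Without replicate 1, the library with the weaker knockdown, 10 further members were called, where calls over all genes went from 16.1% to 32%. Beside the 5 named above without this library they are IRF7 (log2 fold change -0.58), ISG15 (0.68), TRIM25 (-0.31), IFI6 (0.70) and IFI35 (0.69). Without replicate 2, 7 further members were called, where 27.4% of all genes were, and they include TRIM25 (-0.48), DTX3L (0.43) and IFI44L (0.31). In these fits the lone knockdown library was assumed to vary as the controls do.

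The other genes of the pathway were taken from 5 lists of 121 genes, of which 80 were tested. Of these, 21 (26.2%) were called, 12 higher and 9 lower, beside 16.1% of all genes. The lists were chosen with earlier results of these data known and were not tested as sets. Their median standard error was 0.15, beside 0.18 over all genes tested, so smaller changes could pass. Of 21 interferon ligand genes 0 could be tested, 11 had 0 counts in every library, and the highest count was 10, for IFNK, and 3 for any other. IFNB1, named for its place as the first interferon made on RNA sensing, had 3 and 2 counts in the controls and 3 and 3 with USP47 shRNA. No difference in interferon transcripts was therefore detectable at this depth.

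Among 12 other receptors, kinases and feedback genes, IFNLR1 fell (8.33%, beside 9.56% of all genes tested) and 11 did not pass the test. IFNLR1, the specific chain of the receptor for lambda interferons, went from 9.49 and 10.9 CPM to 5.15 and 5.92 CPM (log2 fold change -0.89, standard error 0.18, adjusted p = 0.00952). JAK1 and TYK2, the kinases of the receptor, named after their values were seen, had log2 fold changes of 0.11 and 0.40 with standard errors of 0.13 (adjusted p = 0.568 and 0.0624). Of 14 tested sensing adaptors and kinases 1 was called, and it fell (7.14%, beside 9.56% of all genes tested). It was TRAF3, a ubiquitin ligase that passes the signal of MAVS and TRIF to the kinase TBK1. TRAF3 went from 79.5 and 84.6 CPM to 48.5 and 44.6 CPM (log2 fold change -0.82, adjusted p = 0.00328).

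Among 42 tested further interferon-stimulated genes 8 rose (19%, beside 6.52% of all genes tested) and 7 fell (16.7%, beside 9.56%). IRF5 (1.77), ZNFX1 (0.81), TRIM26 (0.62), TRIM38 (0.60) and HELZ2 (0.65) rose, with adjusted p between 0.00585 and 0.0143. The fall was steepest for SLFN5, a nuclear regulator of the Schlafen family, from 30.5 and 28.6 CPM to 8.13 and 7.25 CPM (log2 fold change -1.94, standard error 0.15, adjusted p = 0.000354). TRIM5 (-0.80), a capsid-binding restriction factor, the cytidine deaminase genes APOBEC3B (-0.82) and APOBEC3D (-0.98) and TMEM140 (-0.79) fell as well. Called genes of both directions were present in this list, as among the members.

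Small RNA processing genes, on some of which an shRNA relies to act, all had enough counts to test. Of these 12 genes 4 rose (33.3%, beside 6.52% of all genes tested) and 0 fell (beside 9.56%). The list was chosen with earlier results of these data known, so these shares describe it and test nothing. Its median standard error was 0.13, beside 0.18 over all genes tested, so smaller changes could pass. DICER1, the enzyme that cuts hairpins into small RNAs, was at 103.5 and 95.01 CPM in the controls and at 195.9 and 141.6 CPM with USP47 shRNA (log2 fold change 0.77, standard error 0.16, adjusted p = 0.0128). Its partner TARBP2 rose by 0.61, the Argonaute gene AGO1 by 0.46 and TNRC6A, which recruits the silencing machinery, by 0.52 on the log2 scale (adjusted p = 0.0149, 0.0307 and 0.0262). The other 8 had log2 fold changes from -0.16 to 0.23 and did not pass the test.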

How the data were processed

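RNA-Seq of HGC-27 cells gave 4 libraries, whose groups come from the labels. Each deposited file holds whole-number read counts per gene, not normalized, beside the FPKM and TPM values the authors derived from them. Per the submitters' processing notes and the paper's methods, reads were mapped with STAR 2.7.5c to hg19, SAMtools 1.9 removed duplicates, which without molecular identifiers lowers high counts most, and featureCounts and DESeq2 1.26.0 are named. The annotation release is not given in the sources used here. The labels name a stranded library kit and the methods another kit and triplicate samples.

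Counts were tested in edgeR 4.0.16 (R 4.3.3) with TMM normalization, filterByExpr and a robust quasi-likelihood fit over 21932 genes, both directions, Benjamini-Hochberg adjusted p under 0.05. CPM are scaled by TMM. A standard error is the ratio of the log2 fold change to the root of the F statistic. The fit was tested on simulated data. Deposited TPM served for levels between genes, with FPKM set beside them. Of 63568 identifiers 55665 matched a symbol, and positions and shared 50-base words come from GRCh37 with GENCODE annotation. Alternatives were the DESeq2 1.42.0 Wald test, size factors, library size alone, no filter, at least 10 counts in every library, a replicate block and each library left out.

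The members and gene lists were chosen with earlier results of these data known. Full values are given for called members and for the 3 largest changes in each direction at a mean of at least 1 CPM (all of them called), for the 5 highest control levels in TPM, and for called pathway genes, at most 5 per list and direction by smallest p. Values of other members and of genes said to be named for their place are given by role. Some genes of the pathway and marker lists are not reported here.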

Additional observations from a re-analysis of the deposited data

How the results depend on the processing

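Against 6 members higher and 4 lower, DESeq2's Wald test called 2 and 2, scaling by library size alone 3 and 5, the replicate block 12 and 6, no filter 4 and 4, and at least 10 counts in every library 5 and 5. Over all genes the calls moved too, from 16.1% to 13.3% (of the genes with an adjusted p), 12.8%, 33.8%, 6.98% and 17.2% in the same order. Fits without 1 library gave between 1 and 13 higher and between 1 and 7 lower, with 5.24% to 32% of all genes called. Of the other pathway genes 12 were higher and 9 lower. Library size alone gave 7 higher, the replicate block 21 higher and 14 lower, and leaving out a library between 2 and 23 higher and between 4 and 14 lower. The median log2 fold change of the members was 0.16 with library size alone, where the median of all genes moved to -0.07, and from 0.053 to 0.22 without 1 library. The cause of these shifts was not tested. Replicate 1 deviated alike in both groups across genes with r = 0.213, but with 2 pairs and no stated batch the numbers mark no pairing, and the block called 8 further members and kept the 10. The fall of USP47 and the direction of all 10 called members held in each of the 10 fits, which reuse the same libraries. For direction this adds little, since the groups of these genes did not overlap in CPM. The 5 highest control levels were the same genes in FPKM, but FPKM orders the genes of a library as TPM does and so is no separate check. The ISRE core with a further A was held by 23 members (3.65% of all promoters). Genes under a few counts, among them MX1, OAS1 and IFIH1, are limited by depth.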
